A study of Mus musculus with 24 samples.

Results

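The 10 genes described here are Fos, Fosb, Jun, Junb, Egr1, Atf3, Ier2, Klf2, Klf4 and Btg2, which are switched on within minutes of a signal. They were taken by symbol from the 20555 genes of each deposited expression table, and all 10 were found in the table of endothelial cells and in that of microglia. Their RNA was sequenced from cells that had been sorted out of slices of mouse brain. In microglia, 8 of the 10 could be tested and 0 passed between treatment groups after correction over all genes, while Junb passed a test of the letters A, B and C that the samples carry, a call that ended when any of 4 single libraries was left out. In endothelial cells 0 of the 5 tested passed either. Fos was not among those 5, as the scale of that table compresses all but the strongest genes. Fos lay above PBS in the exosome libraries lettered A or B and below PBS in those lettered C. How many of all genes share that split was not counted.

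The slices were given phosphate-buffered saline (PBS) or exosomes, small membrane vesicles that cells release, at 5 µg per slice for 2 days. The exosomes carried the green membrane dye PKH67 and are labelled wild type (WT), knock out 1 (KO1) or knock out 2 (KO2), and the series title concerns the CEMIP protein of tumour exosomes. The outer rings of the slices were digested with Dispase and collagenase, myelin was removed, and live cells were sorted as endothelial cells (CD45-, CD31+) or microglia (CD45+ with little CD11b and CD49d). Of 24 samples in the labels 21 libraries were analysed here: in endothelial cells 3 PBS, 2 WT, 3 KO1 and 2 KO2, and in microglia 2 PBS, 3 WT, 3 KO1 and 3 KO2. Not analysed here were endothelial WT C and KO2 A and microglial PBS C. Every sample is described as sorted for exosomes, which leaves the gate of PBS slices unclear. The labels give neither strain nor age nor the alleles of the mice. They do not say whether the letters A, B and C stand for separate animals, cultures or preparations, and p-values therefore reflect only how far these libraries scatter, which could be technical.

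Immediate early genes need no new protein to be transcribed: kinases of the MAP kinase and calcium pathways activate factors that already sit on their promoters. Fos and Jun family proteins pair through leucine zippers to form AP-1, which binds DNA and carries the signal to later genes. In the brain these genes are used as a record of recent activity of cells, and enzymatic digestion of tissue at body temperature is itself known to induce them in microglia and endothelial cells. Klf2 and Klf4 have a further role in vessels, where flow-responsive MAP kinase and MEF2 signalling keeps them on and where they hold the endothelium in a quiet state.

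Promoter stretches that hold motifs of such signal-activated factors are printed first, 6 in all. They come from the RefSeq promoter table of build GRCm38.p6, which covers 250 bases before to 50 bases after a start and held 8 of the 10 genes; Ier2 and Egr1 are named only. Capitals mark the motif, and each stretch holds 20 bases on either side of it, written 5′ to 3′ on the strand of the gene. Klf2 (chr8:72318924-72318973, plus strand), Jun (chr4:95052226-95052275, minus strand) and Atf3 (chr1:191183326-191183375, minus strand) are shown for a MEF2 site, Btg2 (chr1:134079294-134079341, minus strand) for a full cAMP response element, and Fos (chr12:85473804-85473848, plus strand) and Junb (chr8:84978830-84978874, minus strand) for the core of that element.
Klf2: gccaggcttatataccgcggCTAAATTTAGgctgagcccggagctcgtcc
Jun: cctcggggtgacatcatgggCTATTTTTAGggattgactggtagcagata
Atf3: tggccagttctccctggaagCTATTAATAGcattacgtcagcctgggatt
Btg2: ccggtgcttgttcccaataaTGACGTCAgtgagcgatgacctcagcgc
Fos: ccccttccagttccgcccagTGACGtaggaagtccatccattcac
Junb: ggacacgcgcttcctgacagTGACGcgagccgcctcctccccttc

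Of the 8 promoter windows, 7 held TGACG, the core of the cAMP response element bound by CREB and ATF proteins, and Jun was the exception. Both strands were searched, and 20.8% of all 32851 promoter windows held it. The full element TGACGTCA, which contains the core on both strands, was found in Btg2 and in 1.79% of all windows. The MEF2 site, bound by MEF2 proteins, was found in Jun, Atf3 and Klf2, beginning 33, 22 and 118 bases before the start, and in 0.557% of all windows. GCGNGGGCG, the site that EGR proteins bind, was found in Fosb, Klf2, Klf4 and Btg2 and in 5.55% of all windows. The AP-1 site TGANTCA (7.81% of all windows) and the CArG box bound by SRF (1.63%) were in none of the 8 windows. Bases further upstream and other spellings of these sites were not searched, so their absence from the gene was not tested. The Jun stretch printed above holds tgacatca, for example, which the pattern TGANTCA cannot match. A match here describes letters in the window and says nothing about binding in these cells.

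**Figure D1:**
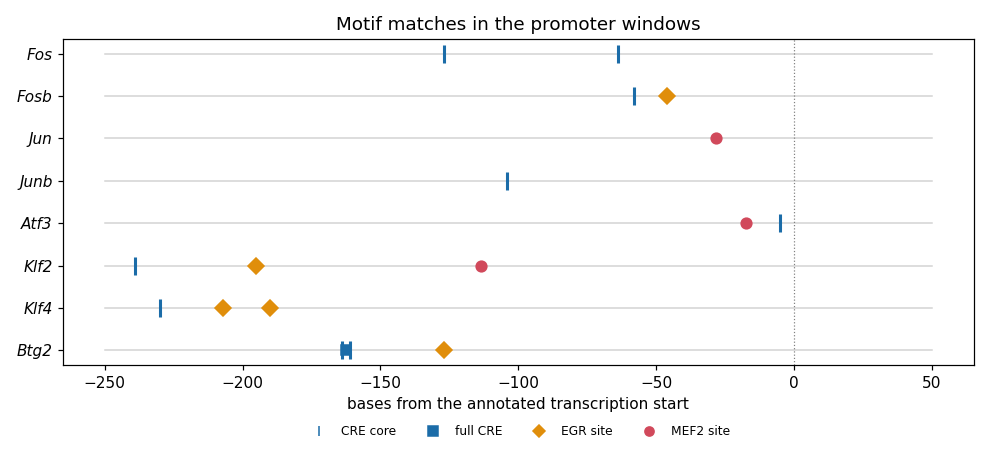
Positions of motif matches in the promoter windows of 8 genes, in bases from the annotated start (horizontal axis), 1 line per gene. Symbols stand for the cAMP response element core (CRE core), the full element, the EGR site and the MEF2 site; the core is present in every gene drawn except Jun.

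Values below are normalised counts per library recovered from the deposited log2 values, with SD over the libraries of a group. Differences are in units of the deposited log2 values, a scale that understates the change of weakly expressed genes. The libraries held 25.7 to 28 M normalised counts in endothelial cells and 27.1 to 29.6 M in microglia. Endothelial markers summed to 270943 to 347183 counts in the endothelial libraries and 328 to 939 in microglia. Sums of microglia markers were 30448 to 41395 in microglia and 98.5 to 4270 in endothelial cells. Choroid plexus and ependyma markers summed to 962 to 7286 in PBS endothelial libraries, to 201747 to 359246 in the 5 exosome libraries lettered A or B, and to 6727 and 22843 in KO1 C and KO2 C. Of the 10 such markers, 1 to 3 reached 100 counts with PBS, 7 to 8 with WT, 3 to 8 with KO1 and 2 to 8 with KO2. In these bulk samples a smaller number of cells of a type and less RNA per cell cannot be told apart. The tables of the 2 cell types were normalised separately, so levels set across them were not tested.

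In microglia 8 of the 10 genes were strong enough to be tested among 5227 genes, and Fosb and Klf4 were not. With limma 0 of the 8 passed an adjusted p of 0.05 for WT minus PBS, for all exosomes minus PBS, for knockout minus PBS, for knockout minus WT, for KO1 minus KO2 or for any difference among the 4 groups, and 0% of all tested genes passed in each. At an unadjusted p under 0.05, 2 of the 8 (Klf2 and Btg2) differed between all exosomes and PBS, beside 280 of 5227 genes (5.36%). WT minus PBS had 1 of 8 (Klf2) and 253 genes (4.84%), knockout minus PBS 2 of 8 and 253 genes (4.84%), and knockout minus WT 0 of 8 and 132 genes (2.53%). KO1 minus KO2 had 0 of 8 and 143 genes, and the 4-group test 1 of 8 (Klf2) and 154 genes. The 3 exosome contrasts share their PBS libraries. Klf2 met the filter only through its higher PBS libraries, so its part in these counts is no support. For exosomes minus PBS the median log2 difference of the 8 was -0.24, with 7 below 0, against -0.01 over all tested genes. PBS had no letter C library here, so this contrast mixes letter with treatment. With the letter as a replicate block the differences were 0.10 for Fos, 0.19 for Junb, -0.11 for Jun and -0.18 for Egr1. They were -0.04 for Ier2, -0.18 for Atf3, -0.51 for Klf2 and -0.34 for Btg2.

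Klf2, a zinc-finger factor that restrains activation of macrophages and endothelium (gene 16598; chromosome 8, 72319062 to 72321654, GRCm38.p6), was the member that separated PBS microglia from those given exosomes. It stood at 2092 and 1178 in PBS A and B, at 617, 460 and 1019 in WT A, B and C, at 440, 399 and 424 in KO1, and at 271, 1086 and 675 in KO2. Both PBS libraries lay above all 9 exosome libraries, a separation that 2.07% of all tested genes also had and that 1 of the 8 tested members showed. The opposite separation was found in 0 of the 8 members and 2.1% of tested genes. Over all libraries Klf2 averaged 1.02 log2 units above a gene with no reads, where 1 was needed to be tested. Only the higher PBS libraries lifted that average past 1, so Klf2 entered the test through this contrast. Its p-values and its place beside the shares above are therefore no support. Fitted without the filter, exosomes minus PBS had adjusted p = 0.708 (limma). The mean was 1635 ± 646 with PBS (SD, n = 2) and 599 ± 284 with exosomes (SD, n = 9). The log2 difference was -0.48 (SE 0.135, limma; 95% interval -0.78 to -0.19; unadjusted p = 0.00352, adjusted p = 0.906), and adjusted p = 0.143 with the letter as a replicate block. On log2 of counts plus 50 the difference was -1.44 (adjusted p = 0.902). Within letters the ratio of counts to PBS was 0.295 and 0.391 for WT, 0.21 and 0.339 for KO1, and 0.129 and 0.922 for KO2, in A and B in that order. PBS A carried much of it: without PBS A the log2 difference was -0.30, and without letter A -0.26. Klf2 is abundant in endothelium, and summed endothelial markers were 483 in both PBS microglia libraries and 328 to 939 with exosomes. Choroid plexus and ependyma markers summed to 9024 in PBS A, 687 in PBS B and 12738 in KO2 B. In every other microglia library they summed to 0.733 to 1258. PBS A and KO2 B also held the highest Klf2 value with PBS and with exosomes. The part of either cell type in the Klf2 values was not tested.

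Btg2, an antiproliferative cofactor of mRNA deadenylation (gene 12227; chromosome 1, 134074865 to 134079155), stood at 3405 and 4278 in PBS A and B, at 2503, 3636 and 1664 in WT, at 1300, 2789 and 1842 in KO1, and at 2577, 3216 and 2085 in KO2. PBS overlapped the exosome libraries through WT B alone, which lay above PBS A. The exosome mean of 2401 ± 754 (SD, n = 9) stood against 3842 ± 617 (SD, n = 2) with PBS. The log2 difference was -0.43 (SE 0.175, limma; unadjusted p = 0.0303, adjusted p = 0.906). Within letters A and B all 6 ratios to PBS lay below 1, between 0.382 and 0.85. These ratios reuse PBS A and B and are not independent, and the share of all genes with such ratios was not counted.

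Klf4, a relative of Klf2 that acts in macrophage polarisation (gene 16600; chromosome 4, 55527137 to 55532475), was too weak to be tested and is approximate at this level. It stood at 574 and 366 with PBS, at 152, 347 and 481 with WT, at 391, 46.1 and 298 with KO1, and at 244, 111 and 195 with KO2. All 6 ratios to PBS within letters lay below 1 (0.126 to 0.947), although WT C and KO1 A lay above PBS B. They too reuse PBS A and B, and the share of all genes with such ratios was not counted.

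Fos, the inducible partner in AP-1 (gene 14281; chromosome 12, 85473890 to 85477274), did not part by treatment. It stood at 11951 and 7725 in PBS A and B, at 20053, 4541 and 3644 in WT A, B and C, at 12341, 10980 and 5311 in KO1, and at 7988, 11313 and 3467 in KO2. All 3 C libraries lay below PBS, as did WT B, and WT A was the highest library of all. Exosomes minus PBS gave a log2 difference of -0.27 with a 95% interval of -1.30 to 0.77 (limma), which turned to 0.10 with the letter as a replicate block. Fosb, a partner of Jun linked to sustained stimulation (gene 14282; chromosome 7, 19302696 to 19310118), stood at 160 or less in every microglia library and at 0 in 2 of them, WT C and KO2 B, levels at which the recovered counts are approximate.

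Jun, the partner of Fos in AP-1 and a target of JNK kinases (gene 16476; chromosome 4, 95049036 to 95052222), was highest in letter B whatever the slices had received. It stood at 18632 and 21416 in PBS A and B, at 15108, 22208 and 13847 in WT, at 15496, 21388 and 17603 in KO1, and at 16636, 21118 and 14260 in KO2. The 4 B libraries, PBS included, lay between 21118 and 22208 and every other library at 18632 or less. The share of all genes with the B libraries on top was not counted. Junb, which can limit the activity of Jun (gene 16477; chromosome 8, 84976909 to 84978748), stood at 8203 and 13524 with PBS, at 12143, 14062 and 8656 with WT, at 11995, 12824 and 7544 with KO1, and at 10278, 12267 and 7660 with KO2. The C libraries were its lowest among those given exosomes, and within each of WT, KO1 and KO2 the order was B, A, C. How many of all genes keep that order was not counted. For exosomes minus PBS the log2 difference was -0.21 (SE 0.198) for Jun and 0.00 (95% interval -0.51 to 0.51) for Junb (limma).

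Egr1, a zinc-finger factor induced through SRF (gene 13653; chromosome 18, 34861207 to 34864956), stood at 2974 and 3458 in PBS A and B, at 3331, 2885 and 656 in WT, at 1680, 3881 and 1331 in KO1, and at 942, 3682 and 1839 in KO2. Its B libraries lay between 2885 and 3881 and its C libraries at 1839 or less. Ier2, a short-lived nuclear protein of the same response (gene 15936; chromosome 8, 84661331 to 84662852), ranged from 771 in KO1 C to 2640 in KO1 B, and its 4 B libraries (1863 to 2640) lay above all others. How many of all genes share that split was not counted. Atf3, a stress-induced repressor that restrains inflammatory genes in macrophages (gene 11910; chromosome 1, 191170296 to 191183333), stood at 17783 ± 1265 with PBS (SD, n = 2) and 16007 ± 1680 with exosomes (SD, n = 9), with overlapping groups. Log2 differences from PBS over all exosomes were -0.35 for Egr1, -0.14 for Ier2 and -0.15 for Atf3, with 95% intervals that included 0 (limma).

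**Figure D2:**
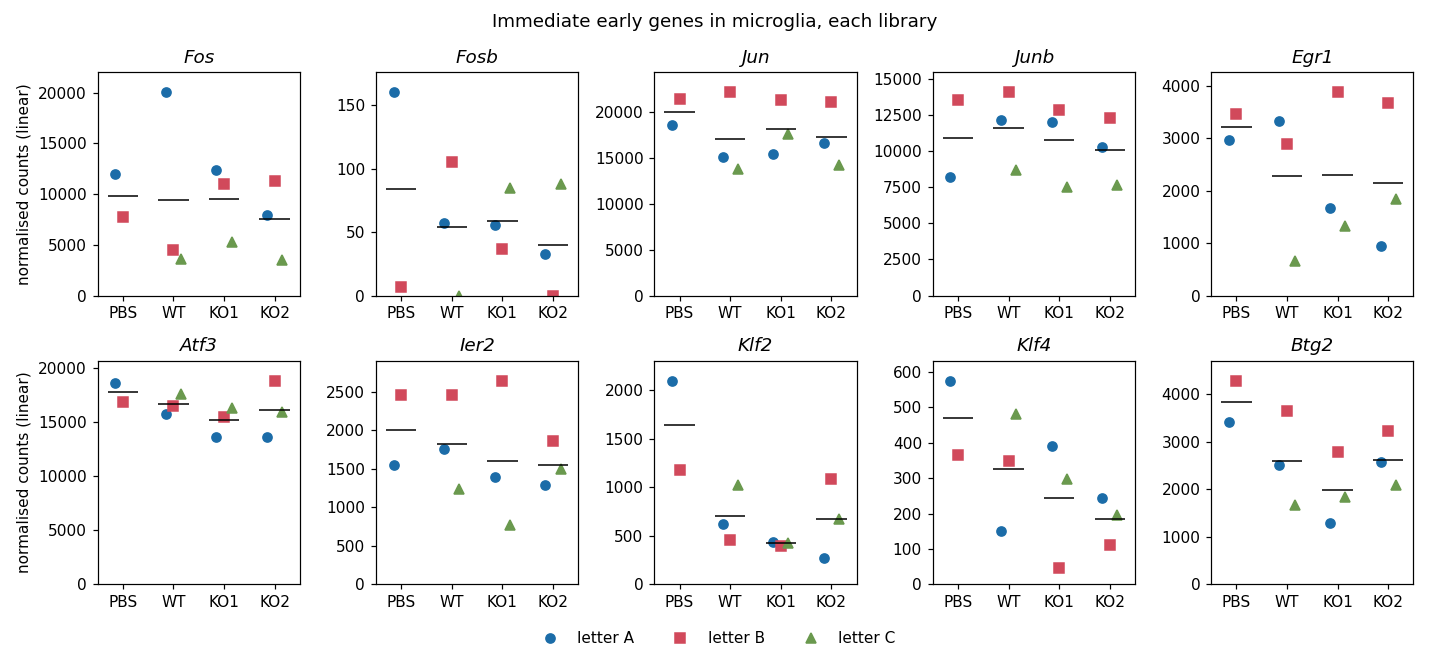
Normalised counts (linear vertical axes starting at 0) of the 10 genes in the 11 microglia libraries, by treatment; each point is 1 library, colour and shape give its letter, and horizontal bars are group means. Klf2 shows PBS (1178 and 2092) above every exosome library (271 to 1086), while Jun and Ier2 have the letter B libraries on top in each group. The share of all genes with letter B on top was not counted.

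The letters were tested directly in the fit that held group and letter. In microglia 1 of the 8 members passed, beside 189 of 5227 genes (3.62%), and 6 of the 8 had an unadjusted p under 0.05 beside 790 genes (15.1%). The member that passed was Junb (limma F test, adjusted p = 0.0196), and with the PBS libraries left out its adjusted p = 0.0111. Over the exosome libraries Junb averaged 11472 ± 1037 in A, 13051 ± 919 in B and 7953 ± 611 in C (SD, n = 3 each). The call ended without KO1 C (0.131), KO2 C (0.0743), WT C (0.113) or WT B (adjusted p = 0.0513), and without the filter on low values (adjusted p = 0.0769). Fos and Jun did not pass, at adjusted p = 0.0516 and adjusted p = 0.0778 (limma F test). Fos passed in 3 of the 11 fits that left out 1 library (adjusted p = 0.00717 to 0.225), and Jun in none of them. Over the exosome libraries Fos averaged 13461 ± 6110 in A, 8945 ± 3818 in B and 4141 ± 1017 in C, and Jun 15746 ± 794, 21571 ± 567 and 15236 ± 2060 (SD, n = 3 each). Egr1, Ier2 and Btg2 had their highest means in letter B and adjusted p = 0.17, 0.145 and 0.173 (limma F test). Klf2 and Atf3 had adjusted p = 0.908 and 0.706. With letter A left out, 4 members passed (Fos, Jun, Junb and Egr1), and with letter C left out 0 passed. With letter B left out the 1 member that passed was Fos (adjusted p = 0.00323, limma F test), and Junb and Jun did not (0.0745 and 0.901).

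Markers of other cells moved with the letters in the same libraries. Among microglia given exosomes, border-associated macrophage markers summed to 2178 to 3125 in A, 5202 to 6158 in B and 704 to 1157 in C, and oligodendrocyte markers to 3196 to 5099, 7075 to 9196 and 4200 to 5302. In PBS A and PBS B these sums were 2080 and 1534 for border-associated macrophages, of whose 7 markers 4 were at 0 in both, and 3958 and 6736 for oligodendrocytes. Microglia markers themselves stood at 35394 to 37562, 32033 to 36144 and 30448 to 41395. The part of these cells in the letter differences was not tested.

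**Figure D3:**
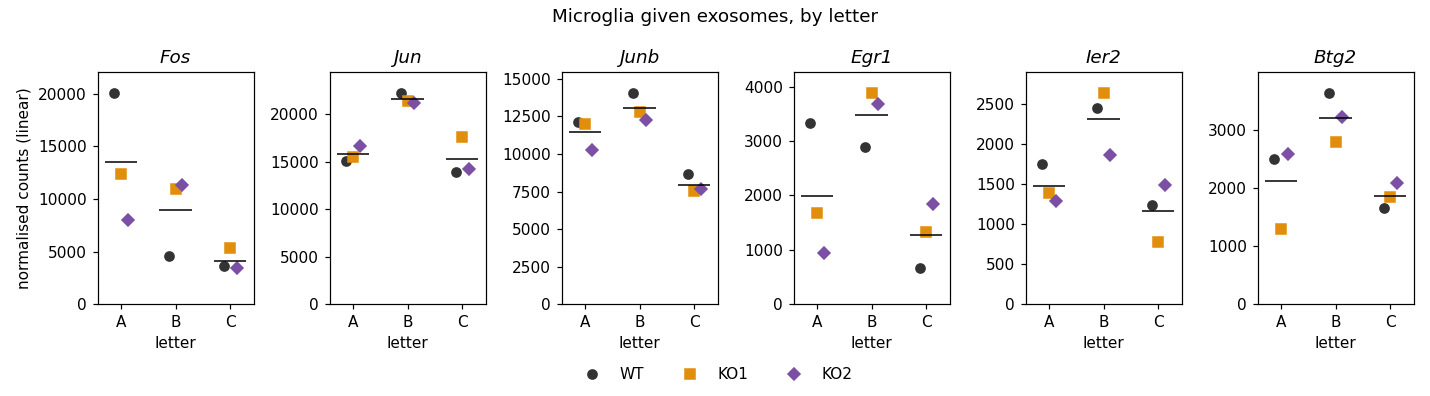
Normalised counts (linear axes starting at 0) of 6 genes in the 9 microglia libraries given exosomes, grouped by letter; points are libraries, shapes and colours give WT, KO1 or KO2, and bars are means. Jun in letter B (21118 to 22208) lies above A and C, and Junb in letter C (7544 to 8656) lies below A and B. The share of all genes with such splits was not counted.

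Exosomes of the knockouts were set against WT exosomes in the same microglia fit. The 8 log2 differences lay between -0.15 (Junb) and 0.10 (Fos), with 2 above and 6 below 0 and adjusted p-values of 0.999 throughout (limma). The widest 95% interval was that of Fos, -0.84 to 1.03, and the narrowest that of Klf2, -0.35 to 0.18. That fit held no letter term, so its intervals include the spread between letters. With the letter as a replicate block and without the filter, 95% intervals were -0.55 to 0.74 for Fos and -0.38 to 0.21 for Klf2. For Junb the interval of that fit was -0.39 to 0.09. Fos had no common direction within letters, with KO1 over WT at 0.615, 2.42 and 1.46 and KO2 over WT at 0.398, 2.49 and 0.951 in A, B and C. Junb lay below WT in all 6 ratios, at 0.846 to 0.988. Each WT library serves both knockouts there, and the share of all genes with such ratios was not counted. KO1 minus KO2 gave 4 members above and 4 below 0, with Btg2 at -0.23 (SE 0.183) and Fos at 0.32 (SE 0.499) the widest apart.

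In endothelial cells 5 of the 10 genes (Jun, Junb, Ier2, Klf2 and Btg2) were strong enough to be tested among 1068 genes, because the scale of that table compresses all but the strongest. With limma 0 of the 5 passed for WT minus PBS, all exosomes minus PBS, knockout minus PBS, knockout minus WT or the test over 4 groups, where 0% of tested genes passed. KO1 minus KO2 also had 0 of 5, beside 1 gene in all (0.0936%). At an unadjusted p under 0.05 the count of members was 0 in each, beside 187 genes for WT minus PBS (17.5%), 193 for all exosomes minus PBS (18.1%), 148 for knockout minus PBS (13.9%), 57 for knockout minus WT (5.34%), 42 for KO1 minus KO2 and 119 for the 4-group test. No tested member had PBS above every exosome library (3.56% of all tested genes) or below every one (2.62%). Fos, Fosb, Egr1, Atf3 and Klf4 were tested only without the filter, among 14164 genes.

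Fos stood in endothelial cells at 3414, 2165 and 2776 in PBS A, B and C, at 5926 and 4436 in WT A and B, at 5657, 4804 and 1809 in KO1 A, B and C, and at 4740 and 1200 in KO2 B and C. The 5 exosome libraries lettered A or B lay above every PBS library, and KO1 C and KO2 C lay below every one. The share of all genes with this split was not counted. The ratio to PBS of the same letter was 1.66 to 2.22 in A and B, and 0.652 and 0.432 in C. Choroid plexus marker sums parted the exosome libraries in the same way, at 201747 to 359246 in A and B and 6727 and 22843 in C, and stood at 7286 or less with PBS. Markers of fibroblasts and meninges, 8 in all of which 1 to 5 reached 100 counts, summed to 3232 to 9943 in the A and B exosome libraries, 199 and 2078 in KO1 C and KO2 C, and 575 to 1486 with PBS. The part of either cell type in the Fos values was not tested. Over all letters exosomes minus PBS had a log2 difference of 0.13 (SE 0.124, adjusted p = 0.911, limma without the filter). Leaving out letter C, an alternative added after the values were seen, gave 0.26. It drops the exosome libraries seen to lie below PBS, so a higher difference was set in advance and is no support. The letter term for Fos had an unadjusted p = 0.0583 (adjusted p = 0.815). Fosb stayed between 0 in KO1 A and 426 in WT A.

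Jun stood at 48456, 30145 and 41718 in PBS A, B and C, at 34109 and 28893 in WT A and B, at 37860, 34773 and 45879 in KO1, and at 38194 and 37275 in KO2 B and C. The groups overlapped, and the PBS libraries held both the highest value and the lowest but WT B. WT minus PBS was -0.23 (SE 0.154) and knockout minus WT 0.20 (SE 0.142) on the log2 scale, with adjusted p = 0.452 and adjusted p = 0.797 (limma). The mean of Junb was 11639 ± 2701 in PBS (SD, n = 3) and 12829 ± 2942 over the exosome libraries (SD, n = 7). The 3 A libraries and KO2 B lay at 14629 to 16439 and all others at 11810 or less. The letter term had an unadjusted p = 0.0139 (adjusted p = 0.199), beside 5 of 1068 genes past the threshold (0.468%) and 0 of the 5 members.

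Atf3 lay lower with exosomes in endothelial cells, short of the threshold. It stood at 10864, 3360 and 6820 in PBS A, B and C, at 1686 and 3137 in WT, at 2486, 2503 and 4268 in KO1, and at 2915 and 4360 in KO2. PBS A and PBS C lay above every exosome library, while PBS B lay among them, below KO1 C and KO2 C. In all 7 letter-matched pairs Atf3 lay below PBS, with ratios of 0.155 to 0.934. The pairs reuse PBS A, B and C and are not independent, and the share of all genes with such ratios was not counted. Without the filter the log2 difference was -0.37 for all exosomes (SE 0.125, unadjusted p = 0.0166, adjusted p = 0.493) and -0.45 for WT (SE 0.164, unadjusted p = 0.0228, adjusted p = 0.474), by limma. PBS A and PBS C were also the highest libraries in the heat shock gene Hspa1b, at 152493 and 72140, against 16776 in PBS B and 25186 or less with exosomes; the part of that difference was not tested.

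Egr1 stood at 3324, 3169 and 4174 in PBS, at 9426 and 5490 in WT A and B, at 582, 5487 and 4098 in KO1, and at 5885 and 3040 in KO2. Both WT libraries lay above PBS, and the knockout libraries lay on either side of it, with KO1 A the lowest of all. The share of all genes with both WT libraries above PBS was not counted. Neither WT minus PBS (0.35, SE 0.194, adjusted p = 0.619) nor knockout minus WT (-0.35, SE 0.179, adjusted p = 0.707) passed in limma without the filter. In letter A the ratio of KO1 to WT was 0.0617, and in letter B it was 0.999 for KO1 and 1.07 for KO2. Ier2 stood at 6751 ± 799 with PBS (SD, n = 3) and 7061 ± 1122 with exosomes (SD, n = 7), and its groups overlapped.

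Klf2, which is abundant in endothelium, had a mean of 4831 ± 1166 in PBS (SD, n = 3) and 5191 ± 1221 over the exosome libraries (SD, n = 7), with PBS libraries at 3857 to 6124 and exosome libraries at 4026 to 7013. Its exosome contrast was 0.05 on the log2 scale with a 95% interval of -0.12 to 0.22 (limma), beside -0.48 in microglia. The deposited scales of the 2 cell types differ, so these units are not alike. On log2 of counts plus 50 the contrasts were 0.14 in endothelial cells and -1.44 in microglia. The difference between the cell types was not tested. Klf4 stood at 1241, 1135 and 1052 in PBS, at 1143 and 644 in WT, at 609, 1088 and 532 in KO1, and at 748 and 529 in KO2, so that 5 of 7 exosome libraries lay below all of PBS. Its log2 difference was -0.09 (SE 0.06, adjusted p = 0.832, limma without the filter). Btg2 had a mean of 7032 ± 612 in PBS (SD, n = 3) and 5662 ± 1536 over the exosome libraries (SD, n = 7), with KO1 A (7831) the highest library of all (-0.12, SE 0.0895, adjusted p = 0.532, limma).

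**Figure D4:**
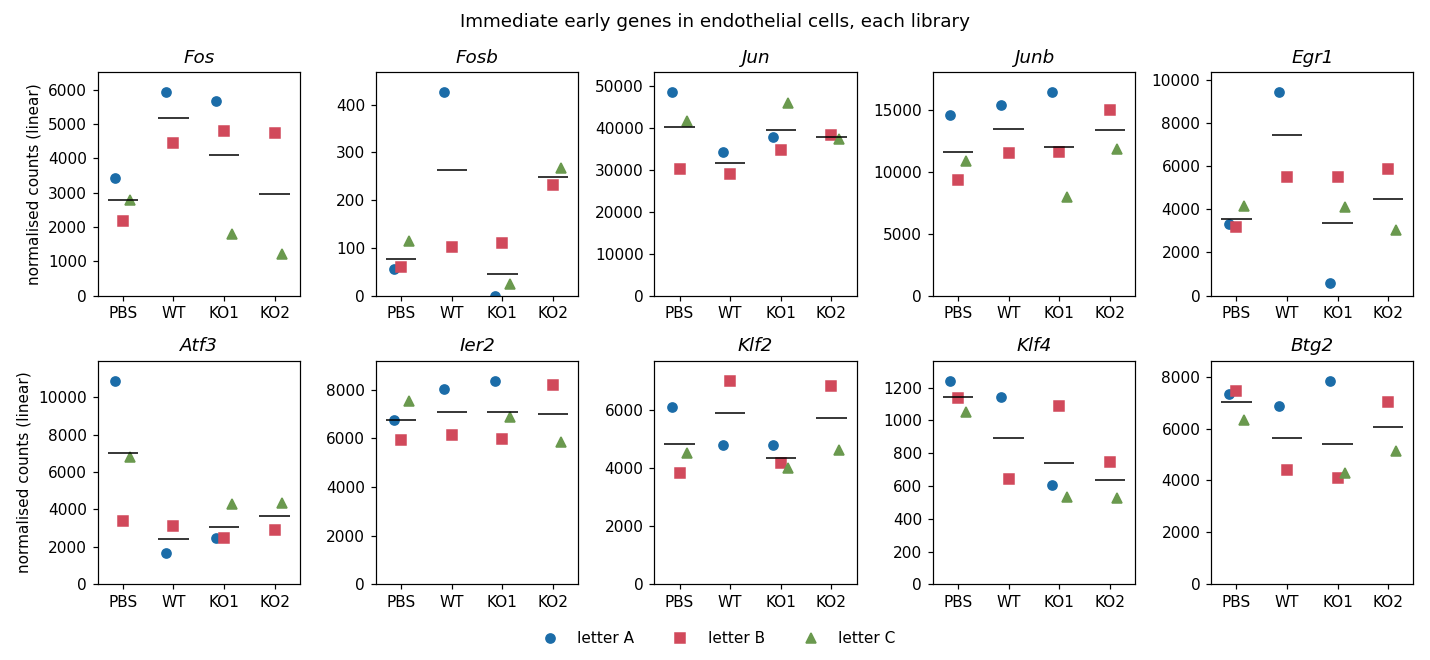
Normalised counts (linear vertical axes starting at 0) of the 10 genes in the 10 endothelial libraries, by treatment; each point is 1 library, colour and shape give its letter, and horizontal bars are group means. Fos shows the exosome libraries of letters A and B (4436 to 5926) above PBS (2165 to 3414) and those of letter C (1200 and 1809) below it.

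**Figure D5:**
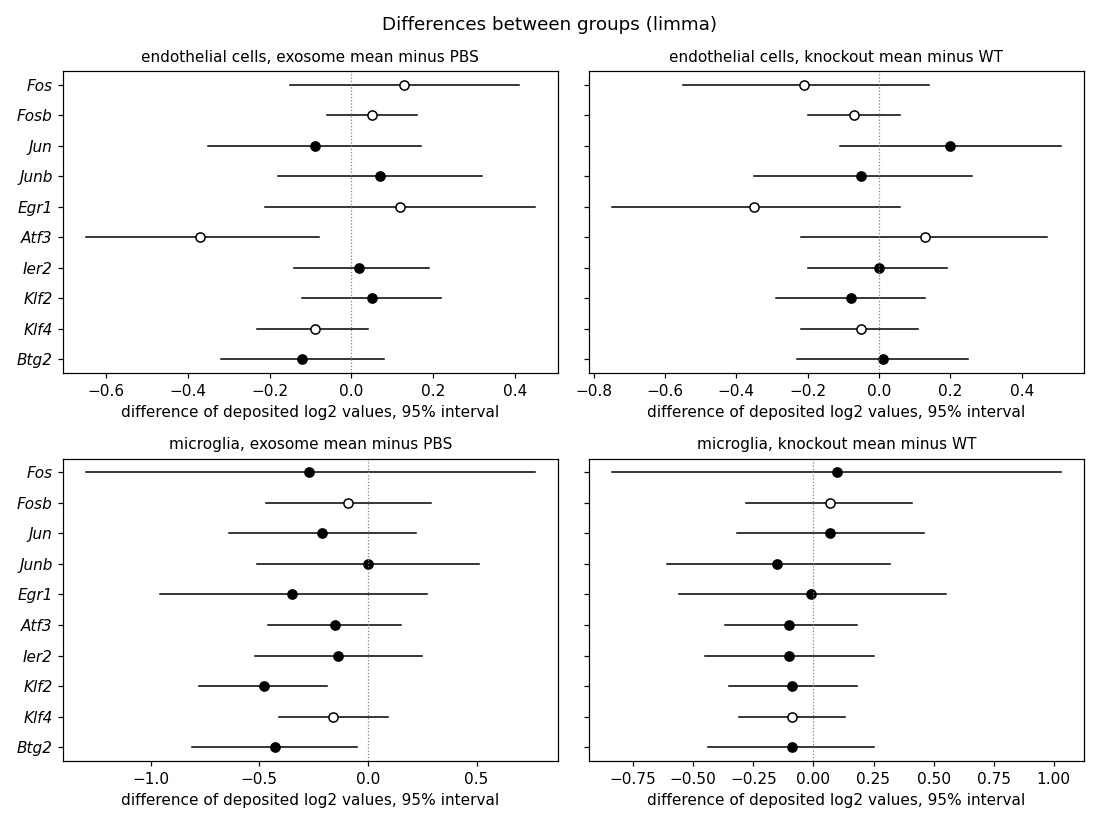
Log2 differences of the deposited values for all exosomes minus PBS and for knockout minus WT, in endothelial cells and microglia; points are estimates, lines their 95% intervals, and open points are genes tested only without the filter. The intervals of Klf2 and Btg2 in microglia and of Atf3 in endothelial cells leave out 0 for exosomes minus PBS, and none passed after adjustment. Klf2 met the filter in microglia only through its higher PBS libraries.

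The wider pathway was read from 8 lists of 125 genes: other AP-1 and bZIP partners, other immediate early genes, KLF and BTG relatives, SRF and its cofactors, MAP kinases, MAP kinase feedback inhibitors, genes tied to MEF2 and to KLF2 and KLF4 in endothelium, and heat shock genes that respond to dissociation. Of these, 39 were tested in endothelial cells and 78 in microglia, and 0 passed in any contrast with limma. At an unadjusted p under 0.05, WT minus PBS had 11 of 39 in endothelial cells and 6 of 78 in microglia, all exosomes minus PBS 14 and 5, and knockout minus WT 3 and 1. Over all tested genes the shares for WT minus PBS were 17.5% in endothelial cells and 4.84% in microglia, and for all exosomes minus PBS 18.1% and 5.36%. For WT minus PBS in endothelial cells 56.3% of all tested genes were below 0, with a median of -0.03. The heat shock list there had 9 of 10 tested genes below PBS with WT exosomes (median -0.41) and 4 of 10 at an unadjusted p under 0.05. Hspa1a, an inducible chaperone, had a mean of 44717 ± 36646 (SD, n = 3) in PBS and of 5362 ± 2402 (SD, n = 2) in WT, a log2 difference of -1.41 (SE 0.453). Hspa1a and Hspa1b are near-identical copies, so the share of reads given to each is uncertain. The 4 tested feedback inhibitors were all below PBS (median -0.18), among them the phosphatase genes Dusp1 (-0.22) and Dusp6 (-0.15), which switch MAP kinases off. Of 11 other immediate early genes 7 were above and 4 below PBS (5 at an unadjusted p under 0.05). Those of smallest p in the 4-group test were the kinase Sgk1 (-0.51, SE 0.117), with 19219 ± 4343 (SD, n = 3) in PBS and 9485 ± 1370 (SD, n = 2) in WT, and the stress genes Gadd45g (-0.35) and Gadd45b (-0.45). Mafk, a small bZIP partner, differed by -0.75 (SE 0.184), from 23251 ± 7594 (SD, n = 3) to 8159 ± 1687 (SD, n = 2).

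For WT minus PBS in microglia 48.3% of all tested genes were above and 51.7% below 0, with a median of -0.01. The heat shock list there had 10 of 12 genes below PBS with WT exosomes (median -0.17, 0 at an unadjusted p under 0.05). Other immediate early genes were split, 7 above and 8 below, with Rhob, a small GTPase of the endosome, at -0.47 (SE 0.178) and Sgk1 at -0.75 (SE 0.328, unadjusted p = 0.0401). AP-1 and bZIP partners were split 6 and 6, and the gene of smallest p in the 4-group test was Crem, which encodes activators and repressors of the cAMP response element, at 0.43 (SE 0.151). Of 16 MAP kinase genes 10 were above PBS, with Map2k3, an activator of p38, at 0.54 (SE 0.184). Map3k2, a kinase upstream of MEF2 signalling, had a mean of 374 ± 280 in PBS (SD, n = 2) and 2628 ± 698 in WT (SD, n = 3), a log2 difference of 0.97 (SE 0.191, unadjusted p = 0.000235), and in the 4-group test of limma its adjusted p = 1. Between knockout and WT exosomes the lists had medians of -0.10 to 0.04 in microglia and -0.16 to 0.17 in endothelial cells.

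Genes with the pattern most like the members' mean were found by Pearson's r with the mean of the standardised values of the tested members, as a description over libraries that share their preparation. In microglia these were Hspa1a (r = 0.91, Spearman's rho = 0.745, n = 11 libraries), Hspa1b (0.898 and 0.782), Plek, a substrate of protein kinase C in blood and immune cells (0.885 and 0.809), Trf, the iron carrier transferrin (0.858 and 0.818), and Rgs1, which damps chemokine receptors (0.851 and 0.864). Hspa1a lay at 22739 to 30743 in the 4 letter B libraries and at 8842 to 16716 in all others. In endothelial cells they were Prpf8, a core splicing factor (r = 0.841, rho = 0.879, n = 10 libraries), Sdc3, a heparan sulfate proteoglycan (0.835 and 0.842), Hspa5, the chaperone of the endoplasmic reticulum (0.81 and 0.721), Ets1, a transcription factor of endothelium (0.792 and 0.782), and Pcdhgc3, a protocadherin (0.786 and 0.806). Among the members themselves the highest r in microglia, over 11 libraries, were those of Junb with Ier2 (r = 0.80, rho = 0.83), Atf3 with Klf2 (0.79 and 0.84), Jun with Btg2 (0.79 and 0.83) and Egr1 with Ier2 (0.78 and 0.90, the highest rho). In endothelial cells, over 10 libraries, Fosb with Egr1 (r = 0.79, rho = 0.56) and Fos with Junb (0.72 and 0.71) had the highest r.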

How the data were processed

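RNA sequencing libraries of sorted endothelial cells and microglia were processed by the authors with build GRCm38.p6, per the submitters' processing notes. These name DESeq2 1.18.1, Salmon 0.10.0, Trimmomatic 0.38 and FastQC 0.11.7 without saying what each did. The authors deposited 1 table per cell type of log2 values, named in the labels as variance-stabilised; a gene with no reads sits at 13.2814 in endothelial cells and 9.8893 in microglia. Their second pair of tables, with mean normalised counts as a signal, scores of fold change and test statistic, and p-values that the authors deposited, lists 362 and 238 genes and 0 of the 10 members.

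Symbols came from a RefSeq table (20537 of 20555 genes matched). Counts were recovered by the closed inverse of the transform in endothelial cells (error 0.0% over the 362 means) and by a curve through the 238 means in microglia (largest held-out error 0.529%, not anchored below a mean of 54.3). Endothelial read depth was 18.4 to 35.6 M reads, from steps that were whole within 0.05 for 56.1 to 89% of values; microglia depth is unknown. Genes entered when their mean lay 1 above the floor. Deposited values were fitted with limma 3.58.1 in R 4.3.3, with a trend, 1 fit per cell type over its libraries, and Benjamini-Hochberg adjustment over all tested genes at 0.05; the step was tested on simulated data. Letters entered an alternative fit. Among microglia given exosomes, same-lettered libraries deviated together in all 9 pairs (r = 0.146 to 0.554), so the letters pair knockout and WT there; with PBS the 6 pairs had r = 0.02 to 0.15. Endothelial KO1 and PBS libraries of the same letter had r = 0.111, 0.328 and 0.343, and those of other letters -0.301 to 0.085. Over all endothelial groups, pairs of other letters reached r = 0.366, so pairing there is not settled.

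All 10 members are described. Of each list, the up to 3 tested genes of smallest 4-group p are eligible to be named; as like-patterned genes, the 5 of highest r per cell type. Hspa1a and Hspa1b values by library were chosen after they were seen. Members and lists were chosen with earlier results of these data known. The groups were smaller than the 3 libraries planned for. Alternatives were no filter, counts plus 50 or 10 on a log2 scale, median centring, no trend, only the groups compared, the letter block, and libraries or letters left out.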

Additional observations from a re-analysis of the deposited data

How the results depend on the processing

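No treatment contrast called a member in any alternative: the count stayed at 0 in both cell types without the filter, on log2 of counts, after centring, without the trend, with only the groups compared, with the letter as a replicate block and without each letter or library. The lowest adjusted p of a member over these was 0.143, for Klf2 in microglia with the replicate block (limma). Among tested members the sign held in every alternative run for 1, 2 and 1 of 5 in endothelial cells and for 4, 5 and 3 of 8 in microglia (WT minus PBS, exosomes minus PBS, knockout minus WT). The other members were fitted in the 3 settings without the filter only, where the sign held for 5, 5 and 5 of 5 and for 1, 2 and 1 of 2. Counts over all genes did move: the replicate block raised them from 0 to as many as 62 in endothelial cells (exosomes minus PBS) and 54 in microglia, and other settings gave at most 26 (no filter), 14 (only the groups compared), 6 (letter C left out), 42 (without KO1 C) and 21 (without PBS B) in endothelial cells and 8 (letter C left out) in microglia. Chosen after seeing the data, no filter with letter C left out gave up to 182 and 76, and no filter with the block 0 and up to 31. The letter test of microglia, whose alternatives were also chosen after seeing the data, called 1 member (Junb), 4 with letter A left out, 1 with letter B left out (Fos, adjusted p = 0.00323 by limma, in place of Junb, 0.0745), 0 with letter C left out, 0 without the filter, and 0 to 2 without single libraries. The cause of these shifts was not tested.

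Signs that turned, in log2 units, were as follows. In endothelial cells Junb turned for knockout minus WT (0.057 with letter C left out, filtered or not, and 0.081 with the replicate block, filtered or not). Ier2 turned for WT minus PBS (-0.048 with letter A left out), exosomes minus PBS (-0.018 and -0.002 with letter A or B left out) and knockout minus WT (0.046 with letter A or C left out, 0.024 with the block). With letter B left out Klf2 was -0.047 for WT and -0.065 for exosomes, and Btg2 0.005 for WT minus PBS and -0.116 for knockout minus WT, which was -0.009 after centring. In microglia Fos was 0.058 for WT and 0.096 for exosomes with letter C left out, 0.033 and 0.096 with the block, and -0.396 for knockout minus WT with letter B left out. With neither filter nor letter C, Fosb was 0.047 for WT minus PBS and -0.182 for knockout minus WT. With letter A left out Junb was -0.268 for WT and -0.374 for exosomes, Egr1 0.337 for knockout minus WT and Atf3 0.019 for WT. Egr1 was 0.077 and 0.070 on log2 of counts plus 10 and 50, and Ier2 0.040 for WT with letter C left out and 0.028 with the block.

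Without single libraries the endothelial ranges that crossed 0 were -0.001 to 0.211 (Junb) and -0.050 to 0.101 (Ier2) for WT minus PBS, -0.011 to 0.055 (Ier2), -0.227 to 0.012 (Jun) and -0.002 to 0.108 (Klf2) for exosomes minus PBS, and -0.105 to 0.118 (Btg2), -0.080 to 0.071 (Ier2), -0.153 to 0.059 (Junb) and -0.177 to 0.018 (Klf2) for knockout minus WT. In microglia they were -1.0 to 0.058 (Fos), -0.233 to 0.094 (Ier2) and -0.227 to 0.430 (Junb) for WT minus PBS, -0.550 to 0.014 (Fos), -0.299 to 0.029 (Ier2) and -0.325 to 0.332 (Junb) for exosomes minus PBS, and -0.244 to 0.067 (Btg2), -0.319 to 0.182 (Egr1), -0.294 to 0.764 (Fos), -0.209 to 0.018 (Ier2) and -0.062 to 0.274 (Jun) for knockout minus WT.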
